A study of Mus musculus with 4 samples.

Results

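The Wnt genes described here are the secreted Wnt ligands, their Frizzled receptors and Lrp5 and Lrp6 co-receptors, the Sfrp and Dkk antagonists, the R-spondins, and the intracellular genes Ctnnb1, Axin1, Axin2, Apc, Lef1, Tcf7, Tcf7l1 and Tcf7l2. They were chosen by gene symbol, with earlier results of these data known. Of the 56393 genes listed in the deposited counts, 51 belong to the set. RNA was sequenced from the mouse podocyte line MPC, a conditionally immortalised line of podocytes, the epithelial cells on the outer face of the kidney filter. The cultures expressed either a hairpin against Jaml, the gene of a junction adhesion molecule-like protein (sh-JAML), or the control hairpin (sh-NC), and were kept without added glucose or with D-glucose at a final 40 mmol/L for 24 h (sh-NC/HG and sh-JAML/HG). All 4 groups shared expansion at 33 °C in 10% serum with 20 U/ml interferon-gamma and 7 days of differentiation at 37 °C without interferon-gamma. The labels name no osmotic control. Each of the 4 groups had 1 library, so a difference between libraries has no replicate check.

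Wnt proteins bind a Frizzled receptor together with Lrp5 or Lrp6, and this halts the destruction complex of Axin, Apc and their kinases that otherwise marks beta-catenin for degradation. Beta-catenin then enters the nucleus and drives target genes with TCF/LEF factors. Sfrp proteins bind Wnt ligands, the Dickkopf protein Dkk1 blocks Lrp5 and Lrp6, and R-spondins prolong signalling by protecting the receptors. Wnt signalling guides nephron formation, is low in mature podocytes, and is known to be active in podocytes in proteinuric disease.

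Deposited counts summed to between 79330461 and 94341975 per library. Genes with counts of 4, 8 and 12 were 1.75 to 1.95 times as frequent as genes at the even values beside them, so 4 units were taken as 1 fragment and 12 units (3 fragments) as the floor. Levels are CPM after TMM scaling, and levels of different genes are compared only per kb of exon. Each fold is followed in parentheses by its exact 95% interval (Clopper-Pearson), which covers counting error only and leaves out the spread between cultures. Jaml was at 0 in all 4 libraries, which allows up to 0.129 to 0.151 CPM, so its reduction could not be measured. Of 15 podocyte markers 11 were past the count minimum, among them Synpo at 13816 to 23001 units. Tcf21 was at 0, Ptpro stayed under the floor, and Nphs1 had 17 to 35 units. Of 10 tubule markers 5 were past it, and Slc34a1 and Umod were at 0. The tubule list summed to 1350 (sh-NC), 1630 (sh-NC/HG), 1360 (sh-JAML) and 947 CPM (sh-JAML/HG), with Aqp1 at 95.1 CPM in sh-JAML/HG and 281 to 294 CPM elsewhere. The tubule sum was thus highest in the library where Sfrp1 was lowest and Tcf7 and Wnt5a highest. It was lowest in the library where Apc was lowest. The listed markers did not all follow the sum. In the same order, Cdh16 (561, 738, 624 and 438 CPM) and Lrp2 (300, 421, 273 and 233 CPM) had their extremes in those libraries. Pax8 (192, 173, 178 and 178 CPM) and Cubn (1.9, 2.79, 2.36 and 2.88 CPM) did not. The part of the tubule list in those Wnt results was not tested. The sh-NC/HG library stood apart: it lay 2-fold or more above the average of the others in 617 genes and below it in 357, against 126 to 160 and 196 to 241 genes for the other libraries. The mitochondrially encoded mRNAs, listed as a sign of RNA quality, summed to 13400 CPM in sh-NC/HG and to 19800 to 21200 CPM elsewhere, and their part in the Wnt results was not tested.

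Of the 51 genes, 26 had a mean of at least 50 units over the libraries, 16 were lower with some count, and 9 had no count in any library. With those 9 included, 15 genes stayed under the floor of 12 units in every library. Expression was narrow among ligands, where 6 of 19 were past the minimum, and broad among receptors, with 8 of 10 Frizzled genes, both co-receptors, all 3 destruction complex genes, Ctnnb1 and all 4 TCF/LEF genes past it. Of the antagonists 2 of 8 were past it (Dkk3 and Sfrp1), and of the 4 R-spondin genes 0. Listed at 0 throughout were Wnt2, Wnt3, Wnt3a, Wnt8a, Fzd10, Sfrp2, Dkk1, Rspo2 and Rspo3. Dkk1, a secreted blocker of Lrp5 and Lrp6, was thus not detected, with an upper limit of 0.151 CPM in sh-NC. The members under the minimum peaked at 5 to 74 units: Wnt10b, Dkk2, Dkk4 and Rspo1 at 5, Wnt9b at 8, Wnt1 at 9, Wnt16 and Sfrp4 at 12, Rspo4 at 13, Wnt8b at 14, Wnt10a at 16, Wnt5b and Sfrp5 at 26, Fzd9 at 29, Wnt6 at 37 and Wnt11 at 74.

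Of 4 pairs of ligand genes that lie side by side in the genome, 1 held a well expressed gene next to one without counts. Wnt3a and Wnt9a lie 16.2 kb apart on opposite strands of chromosome 11 (59248033 to 59290752 and 59306928 to 59333552, mm10). Wnt3a was at 0 in all libraries, while Wnt9a had 5217 to 7573 units. The other neighbouring pairs, Wnt6 with Wnt10a, Wnt9b with Wnt3, and Wnt10b with Wnt1, were all under the count minimum.

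**Figure D1:**
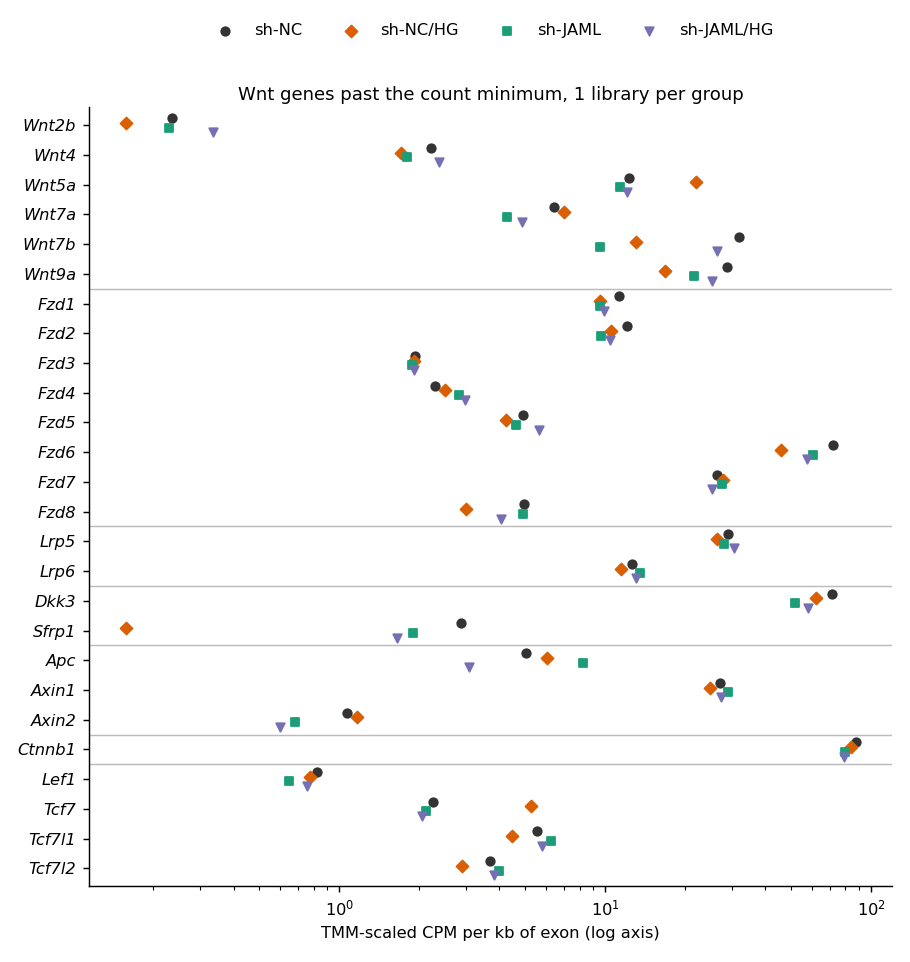
Level of the 26 Wnt genes past the count minimum, in TMM-scaled CPM per kb of exon on a log axis, with 1 point per library and grey lines between roles. Ctnnb1, Dkk3 and Fzd6 lie highest, and Sfrp1 in sh-NC/HG lies at 0.157, far left of its other 3 points at 1.65 to 2.87.

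Promoter windows are shown for Axin2 and Wnt7a, which were lower with the Jaml hairpin at both glucose levels and had the lowest p-values of the set for the hairpin, as described below. Axin2 is the feedback inhibitor gene that beta-catenin and TCF induce in many tissues. The sequences are the 250 bases before the RefSeq start on build GRCm38.p6, read 5′ to 3′ on the gene's strand. Axin2 lies on the plus strand at chr11:108920099-108920348, and Wnt7a on the minus strand at chr6:91411354-91411603.
Axin2: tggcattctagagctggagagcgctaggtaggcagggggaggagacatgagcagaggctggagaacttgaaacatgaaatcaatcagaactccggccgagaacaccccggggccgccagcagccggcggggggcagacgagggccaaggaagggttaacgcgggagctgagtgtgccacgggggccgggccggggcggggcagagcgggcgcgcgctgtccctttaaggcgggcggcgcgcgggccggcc
Wnt7a: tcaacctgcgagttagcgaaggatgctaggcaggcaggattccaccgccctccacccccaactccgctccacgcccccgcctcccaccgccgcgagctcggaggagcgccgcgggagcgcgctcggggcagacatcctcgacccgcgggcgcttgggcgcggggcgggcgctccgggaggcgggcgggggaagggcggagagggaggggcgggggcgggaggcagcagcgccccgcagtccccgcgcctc
Neither window holds the TCF/LEF core CTTTGA or CTTTGT on either strand, so no base is in capitals. Bases outside the windows were not searched, so cores elsewhere in or near these genes are not covered. The 6-letter cores were present in 27.6% of 32851 promoter windows of this length and in 10 of 42 windows of 33 Wnt genes (23.8%). Among the latter were 3 matches each for Dkk1 and for a downstream start of Lef1. G and C made up 69.2% of the Axin2 window and 77.6% of the Wnt7a window, beside a median of 68.6% over the Wnt gene windows and 52.4% over all windows. Wnt5a, Wnt7b, Sfrp1 and Apc had no entry in the table.

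Among the ligands, 3 genes made up most of the message. Wnt7b, Wnt9a and Wnt5a together with Wnt7a and Wnt4 stood above 1 CPM per kb in every library, and Wnt2b was at 0.158 to 0.335 CPM per kb. Wnt7b, a ligand of the ureteric epithelium and collecting duct in kidney development, lies on chromosome 15 (85535437 to 85582473, ENSMUSG00000022382). It stood at 155 (sh-NC), 63.5 (sh-NC/HG), 46.9 (sh-JAML) and 129 CPM (sh-JAML/HG). The untreated control library and the glucose-treated Jaml hairpin library were high, and the remaining pair was low. With glucose Wnt7b was 2.44-fold lower in the sh-NC cells (2.3 to 2.6) and 2.74-fold higher in the sh-JAML cells (2.54 to 2.95). Against the control hairpin it was 3.31-fold lower with the Jaml hairpin at basal glucose (3.07 to 3.56) and 2.02-fold higher in high glucose (1.9 to 2.16). The glucose log2 ratios of the hairpin lines differed by -2.74 (-2.88 to -2.60, counting error), which 4 single libraries cannot test. Wnt7b shares 6.62% of its exon bases with AU022754 on the opposite strand, which had 53 to 246 units, against 3760 to 12328 for Wnt7b.

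Wnt5a, best known for signalling that does not pass through beta-catenin, was high in the sh-NC/HG library alone. It stood at 96.5 (sh-NC), 171 (sh-NC/HG), 89.3 (sh-JAML) and 94.5 CPM (sh-JAML/HG). It was 1.78-fold above untreated sh-NC in sh-NC/HG (1.68 to 1.88) and 1.06-fold in the sh-JAML cells (0.992 to 1.13). Between the hairpins it was 1.81-fold lower with sh-JAML in high glucose (1.72 to 1.91) and 1.08-fold lower at basal glucose (1.01 to 1.15). The gene lies on chromosome 14 (28504750 to 28527448).

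Wnt9a, a ligand of joint and limb development, was lowest in sh-NC/HG. It stood at 95.3 (sh-NC), 56 (sh-NC/HG), 71.9 (sh-JAML) and 84 CPM (sh-JAML/HG). It was 1.7-fold lower with glucose in the sh-NC cells (1.59 to 1.83) and 1.17-fold higher in the sh-JAML cells (1.09 to 1.25). Under high glucose it was 1.5-fold higher with the Jaml hairpin (1.4 to 1.61), and at basal glucose 1.33-fold lower (1.24 to 1.42).

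Wnt7a split the libraries by hairpin. This relative of Wnt7b stood at 20.4 (sh-NC) and 22.2 CPM (sh-NC/HG), above 13.6 (sh-JAML) and 15.5 CPM (sh-JAML/HG). With the Jaml hairpin it was 1.51-fold lower at basal glucose (1.29 to 1.76) and 1.44-fold lower in high glucose (1.25 to 1.66). With glucose it was 1.09-fold higher in sh-NC (0.951 to 1.24) and 1.14-fold in sh-JAML (0.965 to 1.34), so both intervals include 1.

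Wnt4, which drives kidney mesenchyme to form epithelium, stood at 9.29, 7.11, 7.52 and 9.93 CPM in sh-NC, sh-NC/HG, sh-JAML and sh-JAML/HG. It was 1.31-fold lower with glucose in the sh-NC cells (1.05 to 1.61) and 1.32-fold higher in the sh-JAML cells (1.07 to 1.64). Wnt2b was at 0.982, 0.665, 0.961 and 1.41 CPM in the same order. Its 1 ratio past 2-fold was 2.12-fold higher in sh-JAML/HG than in sh-NC/HG (1.09 to 4.06). That ratio rests on 119 against 62 units, and 4 units stand for 1 fragment.

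Below the count minimum, Wnt11, Wnt6 and Wnt5b were singled out after their values were seen, as genes with an interval that leaves out 1 in some pair. Wnt11, a ligand of the ureteric bud tip, had 9 (sh-NC), 74 (sh-NC/HG), 4 (sh-JAML) and 14 units (sh-JAML/HG), and was 7.01-fold higher with glucose in sh-NC (1.84 to 68.2). Wnt6 had 5, 37, 0 and 5 units in that order, with a glucose ratio of 6.31-fold in sh-NC (1.06 to 336). Both were high in the sh-NC/HG library only, at a few fragments. Wnt5b had 13, 9, 26 and 2 units in that order, and was 13.7-fold lower with glucose in sh-JAML, with an interval from 1.24-fold upward without limit, since 2 units come to less than 1 fragment.

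Summed per kb of exon over the 19 ligands, Wnt message was 81.7 (sh-NC), 61.1 (sh-NC/HG), 49.2 (sh-JAML) and 71.3 CPM per kb (sh-JAML/HG). Its composition differed between the libraries. Wnt7b made up 38.8% (sh-NC), 21.2% (sh-NC/HG), 19.5% (sh-JAML) and 36.8% (sh-JAML/HG). Wnt5a made up 35.9% in sh-NC/HG, where it led, and 15.1% to 23.2% elsewhere. Wnt9a led in sh-JAML with 43.9%.

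**Figure D2:**
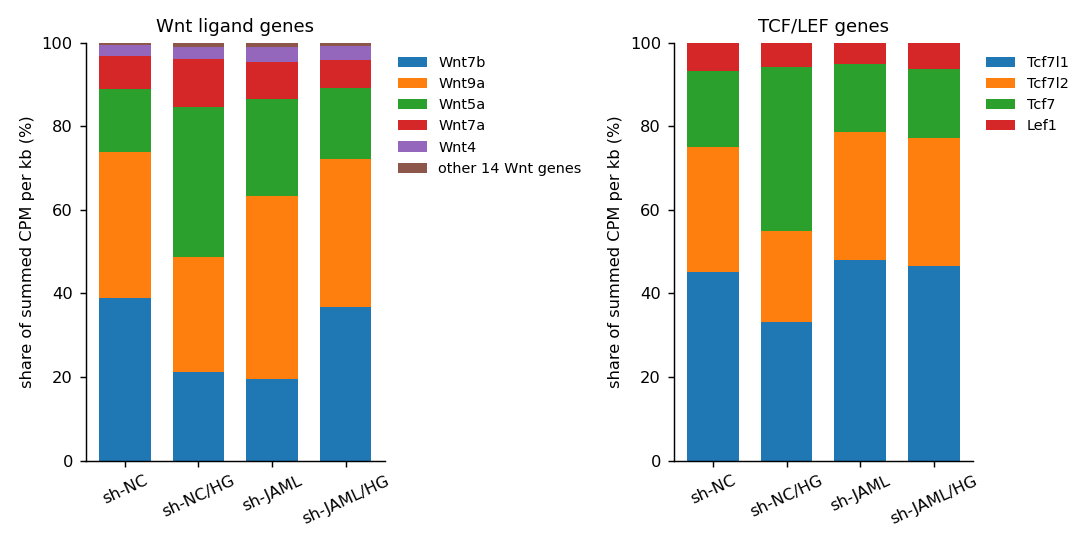
Share of the summed CPM per kb of exon (percent, stacked bars, 1 library per bar) that each gene takes among the 19 Wnt ligand genes (left) and the 4 TCF/LEF genes (right). Wnt5a takes 35.9% and Tcf7 39.3% in sh-NC/HG, against at most 23.2% and 18.3% in the other libraries.

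The 8 Frizzled genes differed by 1.02-fold to 1.65-fold between their highest and lowest library, against 1.4-fold to 3.31-fold for the 6 ligands. The median of this range was 1.3-fold over all 14187 genes past the count minimum and 1.39-fold over the 26 Wnt genes. Fzd6, a receptor of the planar polarity branch, held 43.4% to 52.9% of the summed Frizzled CPM per kb and Fzd7 19.4% to 26.4%. Fzd3, Fzd7 and Fzd1 were the most even at 1.02-fold, 1.1-fold and 1.19-fold, and Fzd2, Fzd4 and Fzd5 followed at 1.26-fold, 1.3-fold and 1.32-fold. Fzd6 stood at 345 (sh-NC), 221 (sh-NC/HG), 291 (sh-JAML) and 277 CPM (sh-JAML/HG). It was 1.56-fold lower with glucose in the sh-NC cells (1.51 to 1.62) and 1.05-fold lower in the sh-JAML cells (1.01 to 1.09). Fzd8 was at 29.6, 17.9, 29.3 and 24.3 CPM in that order. It was lower with glucose in both lines, 1.65-fold in sh-NC (1.45 to 1.88) and 1.21-fold in sh-JAML (1.07 to 1.37). Fzd9 had 9 to 29 units.

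The co-receptor genes were close to level. Lrp5 stood at 255 to 298 CPM and Lrp6 at 157 to 185 CPM, so the highest library was 1.17-fold and 1.18-fold above the lowest. Per kb of exon Lrp5 made up 67.3% to 70% of the pair in every library.

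Among the antagonists Sfrp1 had the widest spread of the 26 genes. It encodes a secreted Frizzled-related protein that binds Wnt ligands and lies on chromosome 8 (23411502 to 23449632, ENSMUSG00000031548). Its counts were 995 (sh-NC), 64 (sh-NC/HG), 666 (sh-JAML) and 609 units (sh-JAML/HG), or 12.5, 0.687, 8.31 and 7.21 CPM. The sh-NC/HG library was far below the rest. With glucose Sfrp1 was 18.2-fold lower in the sh-NC cells (11 to 32.4) and 1.15-fold lower in the sh-JAML cells (0.918 to 1.44). In Jaml hairpin cells it was 10.5-fold higher than in controls in high glucose (6.25 to 18.8) and 1.51-fold lower at basal glucose (1.24 to 1.85). Mesangial and fibroblast markers summed to 1240 (sh-NC), 827 (sh-NC/HG), 876 (sh-JAML) and 883 CPM (sh-JAML/HG). Most of that sum was Acta2, at 1070, 678, 730 and 743 CPM in the same order. The 8 listed markers did not go one way: from sh-NC to sh-NC/HG Pdgfrb, Acta2, Col1a1 and Gata3 were lower, Des (0.453 to 2.32 CPM), Pdgfra and Col3a1 were higher, and Itga8 was at 0. Their part in the Sfrp1 result was not tested, and fewer cells of a type cannot be told apart from less RNA per cell.

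Dkk3, a divergent Dickkopf relative, made up 95.9% to 99.7% of the antagonist CPM per kb. It stood at 239 (sh-NC), 208 (sh-NC/HG), 174 (sh-JAML) and 194 CPM (sh-JAML/HG). With the Jaml hairpin it was 1.37-fold lower at basal glucose (1.31 to 1.43) and 1.07-fold lower in high glucose (1.03 to 1.12).

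**Figure D3:**
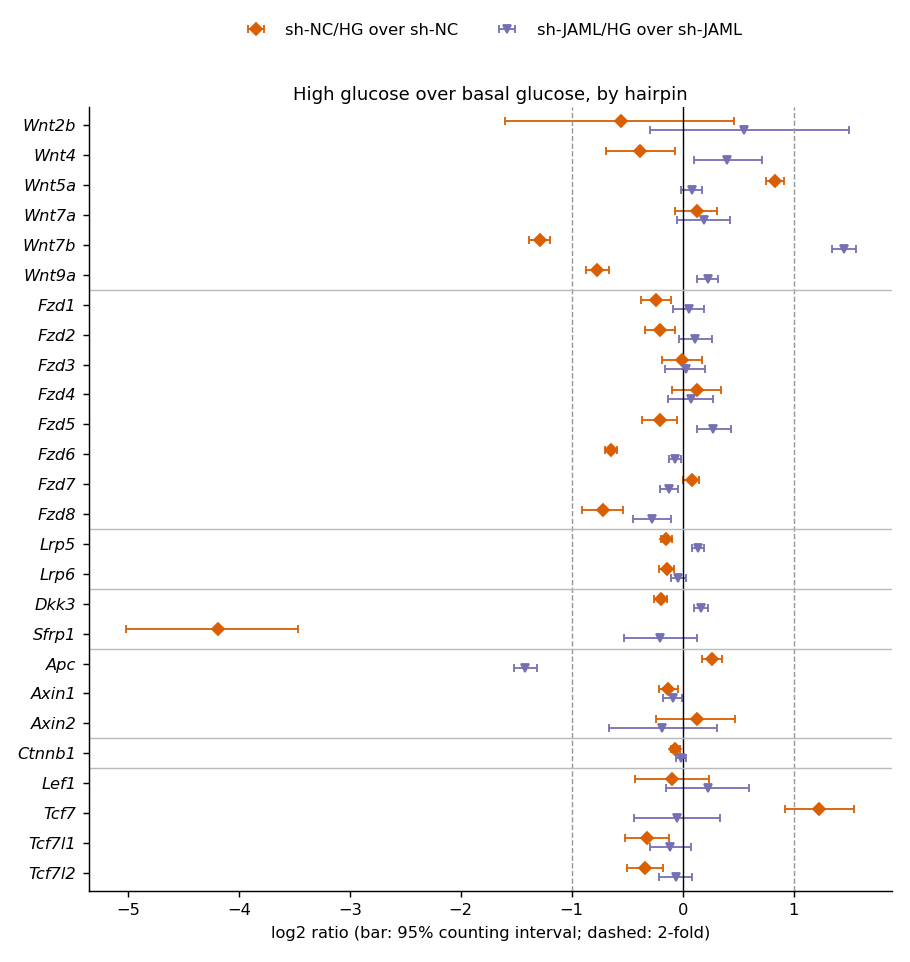
Log2 ratio of high over basal glucose for the 26 Wnt genes, in sh-NC cells (diamonds) and sh-JAML cells (triangles), with 95% counting intervals and dashed lines at 2-fold. Sfrp1, Tcf7 and Wnt7b pass 2-fold in sh-NC, Apc and Wnt7b in sh-JAML, and Wnt7b lies on opposite sides of 0 at -1.29 and 1.45.

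Of the destruction complex genes, Apc differed most. Apc, the scaffold that is lost in intestinal polyposis, lies on chromosome 18 (34220924 to 34322552, ENSMUSG00000005871). It stood at 81 (sh-NC), 97.4 (sh-NC/HG), 133 (sh-JAML) and 49.6 CPM (sh-JAML/HG), so the Jaml hairpin libraries held both the highest and the lowest value. With glucose it was 2.67-fold lower in the sh-JAML cells (2.49 to 2.88) and 1.2-fold higher in the sh-NC cells (1.13 to 1.28). In Jaml hairpin cells it was 1.64-fold higher than in controls at basal glucose (1.54 to 1.74) and 1.96-fold lower in high glucose (1.82 to 2.12). The glucose log2 ratios of the lines differed by 1.68 (1.55 to 1.82, counting error).

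Axin2 split the libraries by hairpin at a low level. It stood at 5.89 (sh-NC) and 6.41 CPM (sh-NC/HG), above 3.76 (sh-JAML) and 3.3 CPM (sh-JAML/HG). With the Jaml hairpin it was 1.57-fold lower at basal glucose (1.17 to 2.13) and 1.94-fold lower in high glucose (1.44 to 2.6). Its glucose ratios were 1.09-fold (0.846 to 1.39) in sh-NC and 0.879-fold (0.63 to 1.24) in sh-JAML. Axin1, the widely expressed relative of Axin2, was at 94.6 to 111 CPM, 1.17-fold between extremes.

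Ctnnb1, the beta-catenin gene, was the highest of the set per kb of exon and among the most even. It stood at 455 (sh-NC), 434 (sh-NC/HG), 414 (sh-JAML) and 410 CPM (sh-JAML/HG), 1.11-fold between extremes. Ctnnb1 shares 15.1% of its exon bases with other genes, chiefly Ulk4 on the opposite strand, which had 832 to 1173 units against 33217 to 40484 for Ctnnb1. Beta-catenin activity is set mainly by protein stability, which RNA does not measure.

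Tcf7, which encodes the T cell factor TCF1, was high in sh-NC/HG only. It stood at 5.9 (sh-NC), 13.8 (sh-NC/HG), 5.58 (sh-JAML) and 5.37 CPM (sh-JAML/HG), and lies on chromosome 11 (52252371 to 52283014, ENSMUSG00000000782). With glucose it was 2.34-fold higher in the sh-NC cells (1.89 to 2.92) and 1.04-fold lower in the sh-JAML cells (0.791 to 1.36). The Jaml hairpin cells were 2.57-fold lower in high glucose (2.06 to 3.2) and 1.06-fold lower at basal glucose (0.806 to 1.38). Tcf7l1, often a repressor, and Tcf7l2 were lowest in that library, at 17.4 CPM against 21.8 to 24.6 CPM and at 25.4 CPM against 32.3 to 35 CPM. Tcf7 made up 39.3% of the summed TCF/LEF CPM per kb in sh-NC/HG and 16.3% to 18.3% elsewhere. Lef1 stood at 5.69 to 7.25 CPM, and each of its 4 ratios had an interval that includes 1.

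**Figure D4:**
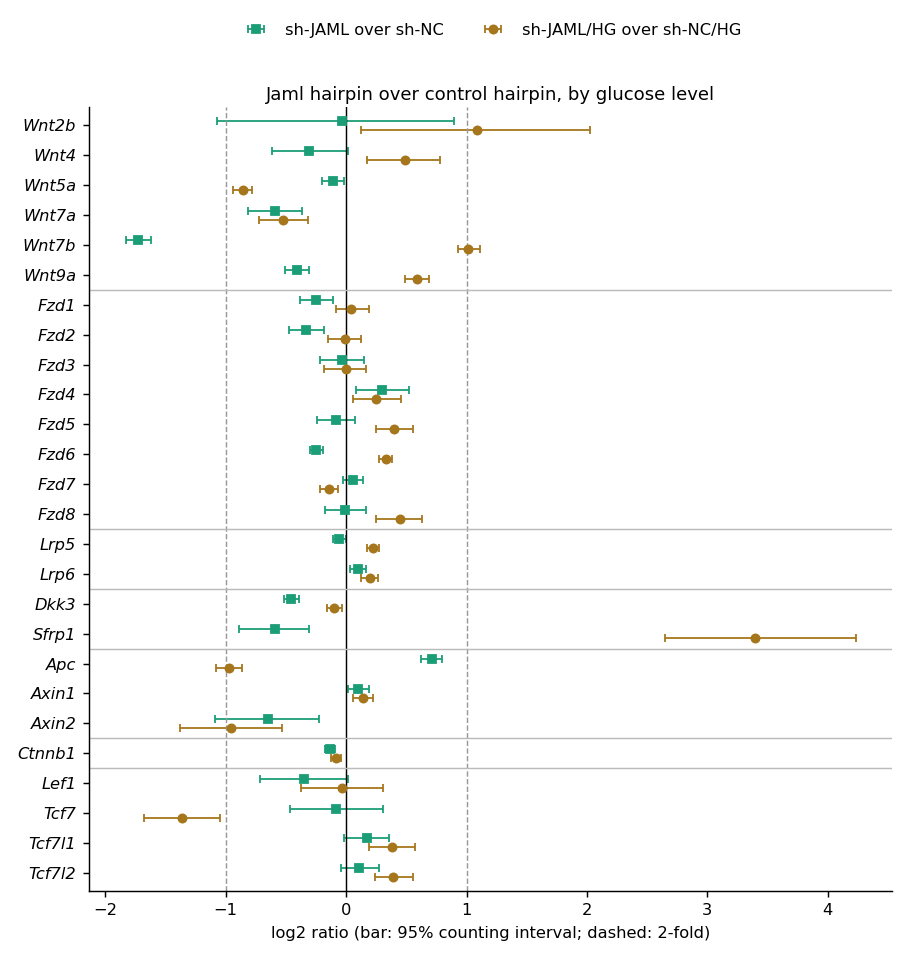
Log2 ratio of the Jaml hairpin over the control hairpin for the 26 Wnt genes, at basal glucose (squares) and in high glucose (circles), with 95% counting intervals and dashed lines at 2-fold. Axin2 and Wnt7a lie left of 0 at both glucose levels, while Sfrp1 reaches 3.37 in high glucose only.

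Across the set, 3 of 26 genes were at least 2-fold apart with glucose in sh-NC (Tcf7 higher, Sfrp1 and Wnt7b lower), beside 7.92% of all 14187 genes past the count minimum. With glucose in sh-JAML there were 2 (Wnt7b higher, Apc lower), beside 2.88% of all genes. With the Jaml hairpin there was 1 at basal glucose (Wnt7b lower), beside 2.71%, and 4 in high glucose (Sfrp1, Wnt2b and Wnt7b higher, Tcf7 lower), beside 7.59%. These are 11.5%, 7.69%, 3.85% and 15.4% of the 26 genes. At 1.5-fold the counts were 7, 2, 5 and 7 of 26 in that order, beside 19%, 7.75%, 8.02% and 18.2% of all genes. The median log2 ratio of the set was -0.17 with glucose in sh-NC, 0.04 with glucose in sh-JAML, -0.10 for the hairpin at basal glucose and 0.17 in high glucose, while that of all genes was 0.00 in each. In sh-NC/HG against sh-NC 19 of 26 genes were below 0, beside 7065 of all 14187 genes. In sh-JAML against sh-NC also 19 were, beside 7040 of all genes. The pairs share libraries, so these counts are not independent of each other. The glucose ratios of the lines differed by at least 2-fold in 5 of 26 genes (Sfrp1, Wnt7b, Apc, Tcf7 and Wnt2b), beside 10.1% of all genes. For Wnt2b the log2 difference was -1.11, with a counting interval that includes 0 (-2.38 to 0.16).

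An additive model over hairpin and glucose gave the test that 4 libraries allow, with 1 residual degree of freedom. EdgeR's quasi-likelihood test with Benjamini-Hochberg adjustment called 0 of 26 Wnt genes for glucose, beside 0.00705% of all genes, and 0 for the hairpin, beside 0% of all genes. At an unadjusted p under 0.05 there were 0 Wnt genes for glucose (2.8% of all genes) and 2 for the hairpin, Axin2 and Wnt7a (2.82%). DESeq2 called 0 Wnt genes for each effect, beside 0.374% of all genes for glucose and 0.338% for the hairpin, and limma-voom called 0. The hairpin log2 difference was -0.80 for Axin2 (SE 0.25, edgeR adjusted p = 0.933) and -0.56 for Wnt7a (SE 0.16, edgeR adjusted p = 0.933), each lower in 2 of 2 pairs. Sfrp1 had a DESeq2 adjusted p of 0.473 for glucose. Wnt7b and Apc lay on opposite sides of 0 in the lines, which this model counts as error. Since disagreement between pairs is the error, the agreement of Axin2 and Wnt7a in both pairs came with their selection by p-value. Ctnnb1, Dkk3 and Wnt5a, among others, were also lower with the Jaml hairpin in both pairs.

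Other genes of the pathway were read from a list of 60, of which 48 were past the count minimum. With glucose in sh-NC 2 were at least 2-fold higher and 2 lower, which is 8.33% of the 48 beside 7.92% of all genes, with a median log2 ratio of 0.05. Pygo2, the nuclear co-activator that binds beta-catenin through Bcl9, was at 135, 31.4, 136 and 148 CPM in sh-NC, sh-NC/HG, sh-JAML and sh-JAML/HG. It was thus low in sh-NC/HG only, 4.32-fold below sh-NC (3.98 to 4.69). Its relative Pygo1 was at 0.969, 4.74, 1.15 and 1.09 CPM, high in the same library and 4.89-fold above sh-NC (3.01 to 8.51). Apcdd1, a membrane inhibitor of Wnt signalling, was 2.44-fold higher (2.24 to 2.66) in this pair, and the planar polarity cadherin gene Celsr2 was 2.56-fold lower (2.46 to 2.67). With glucose in sh-JAML and with the hairpin at basal glucose 0 of 48 were 2-fold apart, beside 2.88% and 2.71% of all genes, with medians of 0.00 and -0.04.

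With the hairpin in high glucose 2 were higher (Pygo2 and Celsr2) and 3 lower, with a median of -0.09, beside 7.59% of all genes 2-fold apart. The largest difference was in the R-spondin receptor gene Lgr6, 5.35-fold lower (2.48 to 14.7) at 29 against 171 units. Genes for making and carrying Wnt were present throughout. Wls, the carrier that takes Wnt to the cell surface, stood at 391 to 448 CPM, and Porcn, the enzyme that attaches the lipid, at 8.28 to 12.4 CPM. Lgr4, the R-spondin receptor gene, was at 150 to 177 CPM, while Lgr5, Sost, Wif1, Frzb and Cer1 were at 0 in all libraries.

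Of 33 genes reported as Wnt targets in various tissues, 29 were past the minimum. Most of them respond to other pathways too, so the list does not read out Wnt alone. It was chosen with earlier results of these data known. All ratios of a pair come from the same libraries, so the genes are not replicates. With the Jaml hairpin at basal glucose 23 of 29 were below 0, beside 7040 of all 14187 genes. The median log2 ratio was -0.27, beside 0.00 for all genes. There 2 were 2-fold apart, beside 2.71% of all genes: Sp5 was 2.91-fold lower (1.01 to 13.8), at 18 against 52 units, and Tnfrsf19 2.57-fold lower (1.43 to 4.77). With the hairpin in high glucose the median was 0.01, with 15 above 0 and 14 below, and 4 were 2-fold apart, beside 7.59% of all genes. Sp5, a factor that beta-catenin and TCF induce directly, was at 0.655, 1.95, 0.225 and 0.533 CPM in sh-NC, sh-NC/HG, sh-JAML and sh-JAML/HG. It was lower with the Jaml hairpin at both glucose levels, as Axin2 was. Ccnd1, the cyclin D1 gene, was at 60.9, 76.1, 36.1 and 43.6 CPM in the same order, and shares 23.4% of its exon bases with another gene. It was named after its values were seen. Other Wnt genes did not all go with Axin2 and Sp5. Lef1 and Znrf3 had hairpin ratios whose intervals include 1 at both glucose levels. With the Jaml hairpin Notum was 1.11-fold higher at basal glucose (0.679 to 1.81) and 1.28-fold lower in high glucose (0.878 to 1.84). Both Notum intervals include 1, and 38.1% of its exon bases are shared. Rnf43 was 1.17-fold higher at basal glucose (0.979 to 1.4), an interval that includes 1. In high glucose Rnf43 was 1.87-fold lower (1.55 to 2.26).

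With glucose in sh-NC the targets went both ways, with 2 at least 2-fold higher, 4 lower and a median of -0.28. That is 20.7% of the 29, beside 7.92% of all genes. Tnfrsf19, a receptor gene of the TNF receptor family, was 3.34-fold lower (1.83 to 6.52) and the growth factor gene Fgf18 2.87-fold lower (2.35 to 3.54). Sp5 was 2.98-fold higher (1.6 to 6.09) and the transcription factor gene Snai2 2.09-fold (1.43 to 3.04). With glucose in sh-JAML the median was 0.10, and 1 gene was 2-fold apart, beside 2.88% of all genes. It was Sp5, at 2.37-fold higher (0.773 to 11.2) on 45 against 18 units.

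**Figure D5:**
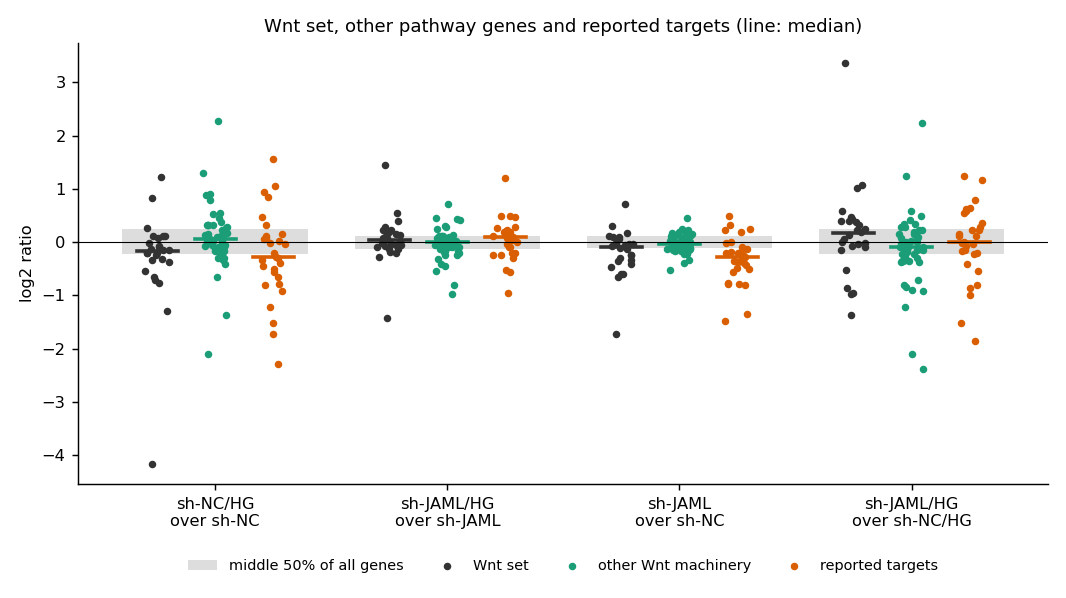
Log2 ratio of each gene past the count minimum in the Wnt set (26), the other Wnt machinery (48) and the reported targets (29), for the 4 pairs of libraries, with list medians as lines and the middle 50% of all genes in grey. The grey band is widest in the pairs with sh-NC/HG, from -0.23 to 0.24, and the targets have their median at -0.27 in sh-JAML over sh-NC.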

How the data were processed

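RNA of 4 cultures was sequenced, 1 library per group, after library preparation by the TruSeq RNA guide, per the labels' protocols. CASAVA 1.8 and TopHat2 2.0.6 with build mm10 are named in the submitters' processing notes. The table the authors deposited holds estimated counts by Ensembl gene, not scaled between libraries. Sources used here name no counting tool, annotation or use of strand. Columns ctr and HG name no hairpin and were taken as the control hairpin. The design text speaks of 4 treated and 4 untreated samples, of which 4 libraries in all were analysed here.

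Symbols, positions, exon lengths and shared exon bases came from GENCODE M21 (mm10), which matched 55480 of 56393 genes. Counts were scaled by TMM (R 4.3.3, edgeR 4.0.16). Genes with a mean of at least 50 units entered, and a prior count of 1 was added for log2 ratios. Pairs were described without a test, and intervals use counts divided by 4. The additive fit used edgeR's quasi-likelihood test with adjusted p at 0.05, tested on simulated data, with DESeq2 1.42.0 and limma 3.58.1 as alternatives. Differences of log2 ratios have a Poisson interval. All Wnt genes are named. Those 1.5-fold apart in any pair have their ratios given. From the other lists the 3 highest and lowest per pair past 2-fold could be named. Members and lists were chosen with earlier results of these data known. Promoters are from RefSeq. Some genes that the lists or the naming rule took are not reported here.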

Additional observations from a re-analysis of the deposited data

Results flagged for a closer look

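In 3 genes the glucose ratio lay on opposite sides of 1 in the sh-NC and sh-JAML cells, with both counting intervals away from 1 and at least 1.5-fold in one line. The log2 ratio in sh-NC minus that in sh-JAML was -2.74 for Wnt7b, 1.68 for Apc and -0.99 for Wnt9a. With 1 library per group these differences were not tested. The share of all genes that meet the same rule was not computed, so the flag cannot be read as particular to Wnt genes.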

How the results depend on the processing

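The counts of Wnt genes at least 2-fold apart were 3, 2, 1 and 4 (glucose in sh-NC, glucose in sh-JAML, hairpin at basal glucose, hairpin in high glucose). They were the same with DESeq2 size factors, with total counts, with a prior count of 5 and without members that share at least 10% of their exon bases, and, for the pairs it is not part of, with TMM factors computed without sh-NC/HG. With no count minimum they were 9, 7, 4 and 9, through genes of few fragments. With a threshold of 1.5-fold they were 7, 2, 5 and 7. The additive fits called 0 Wnt genes under each of their alternatives. For the 11 genes 1.5-fold apart in a pair, 132 of 132 ratios recomputed with other scaling or prior stayed within their counting interval. The scalings were close to each other, with TMM factors from 0.987 (sh-NC) to 1.01 (sh-JAML/HG). These alternatives could thus move the ratios only a little. Leaving out a library removes a group, and the additive fit then has no residual degree of freedom. No replicate numbers pair the libraries, and the additive fit, which takes the hairpin as a term beside glucose, is the one blocked fit they allow. Sp5, Lgr6, Wnt2b, Wnt5b, Wnt6 and Wnt11 rest on few fragments, which limits their ratios.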
